A study of Macaca fascicularis with 86 samples.

Results

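Transcripts of the respiratory chain were followed in 86 laser-captured regions of gastrulating crab-eating macaque embryos. The set held 62 of the 17023 genes measured. It comprised 13 mRNAs encoded by mitochondrial DNA: 7 for complex I (ND1, ND2, ND3, ND4, ND4L, ND5 and ND6), 1 for complex III (CYTB), 3 for complex IV (COX1, COX2 and COX3) and 2 for complex V (ATP6 and ATP8). The other 49 were nuclear genes chosen by symbol, namely NDUFA, NDUFB, NDUFC, NDUFS or NDUFV followed by a number, and any symbol starting with UQCR, COX4 to COX8 or ATP5. Of these, 28 belonged to complex I, 3 to complex III, 7 to complex IV and 11 to complex V. COX4I1, COX6A1, COX6B1, COX7A2, COX8C and ATP5MC1 were not analysed here, so the widely expressed isoforms of several complex IV subunits were outside the set.

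Complexes I, III and IV pass electrons from NADH to oxygen and pump protons across the inner mitochondrial membrane, and complex V, the ATP synthase, uses the proton gradient to make ATP. Each of these complexes has subunits from both genomes: the mitochondrial mRNAs are transcribed as long precursors inside the organelle and translated there, whereas the nuclear subunits are made in the cytosol and imported. Some nuclear subunits of complex IV exist as tissue-restricted isoforms, such as COX4I2, which is known from lung and from low-oxygen responses, COX6B2 from testis and COX7A1 and COX6A2 from heart and skeletal muscle.

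Polyadenylated RNA came from laser-microdissected pieces of 5 to 50 cells, cut from frozen sections by the Geo-seq method for spatial transcriptomes. There were 15 regions in 4 sections of E18 embryo 1, 35 in 6 sections of E18 embryo 2 and 36 in 7 sections of a single E20 embryo. Sections and sectors are numbered in the labels, which name no cell type, batch, strain or treatment. Values are TPM, which scale reads by gene length and library, so levels of different genes could be set side by side. They keep no read counts, and the depth behind each value is therefore unknown. Nuclear values were rescaled to sum to 1000000 without the 13 mitochondrial mRNAs, and mitochondrial values were divided by the same sum unless deposited TPM is named. In these bulk pieces, fewer cells of a type and less RNA per cell cannot be told apart.

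The regions differed in the tissues their marker genes pointed to. The mean log2 level of 18 yolk sac endoderm markers ran from 2.32 to 10.9 (median 9.61) in the 28 regions of E20 sections 1 to 5, and from 0.30 to 1.20 in the 8 regions of E20 sections 6 and 7, where APOC3, FGA and SERPINA1 were listed at 0 in every region. Its medians in the E18 embryos were 1.17 and 1.84. The level of 13 epiblast markers had medians of 6.13 and 6.76 in the E18 embryos, 2.24 in E20 sections 1 to 5 and 6.47 in E20 sections 6 and 7. The level of 15 mesenchyme markers ran from 1.27 to 7.61, from 2.35 to 8.67 and from 1.14 to 7.23 in the 3 embryos. Position along the E20 embryo and tissue composition thus changed together, and E20 sections are given below in these 2 blocks where it matters.

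The 13 mitochondrial mRNAs took up very different shares of the deposited TPM from one region to the next. Deposited values summed to between 495547 and 777987.5 TPM per region, so these are shares of the listed genes and not of all RNA. In E18 embryo 1 they held 8.91% of the summed TPM in the lowest region, 15.7% in the median region and 40.6% in the highest. The corresponding values were 13.3%, 29.4% and 48.8% for E18 embryo 2 and 9.82%, 17.5% and 28.8% for E20. The ranges overlapped, but the 35 regions of E18 embryo 2 separated into 21 at or below 34.2% and 14 at or above 39.4%, and regions of both kinds lay in every one of its 6 sections, whose medians ran from 22.6% to 39.5%. The 40.6% of E18 embryo 1 came from a single region, section 3 sector 3, and the next highest held 23.7%. Without that region the embryo's mean was 15.2% ± 4.00 (SD, n = 14 regions) in place of 16.9% ± 7.60 (n = 15).

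The 49 nuclear members together took a small and steadier share. Of the TPM outside the mitochondrial mRNAs they held 2.91%, 3.42% and 4.16% (lowest, median and highest region) in E18 embryo 1, 1.79%, 2.55% and 3.05% in E18 embryo 2, and 2.41%, 4.01% and 5.47% at E20. The E18 embryos overlapped only between 2.91% and 3.05%, and the lower of them in nuclear share was the higher in mitochondrial share. The region with the 40.6% mitochondrial share had the lowest nuclear share of its embryo, at 2.91%. On the log2 scale, 40.9% of the sum of squares of the mitochondrial to non-mitochondrial ratio lay between embryos, 7.71% between sections and 51.4% within sections. For the mean level of the nuclear members the parts were 50.3%, 7.95% and 41.8%. Taken gene by gene, the medians were 37.3%, 13.3% and 40.7% over the nuclear members, against 23.1%, 14.03% and 62.0% over all genes tested.

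**Figure D1:**
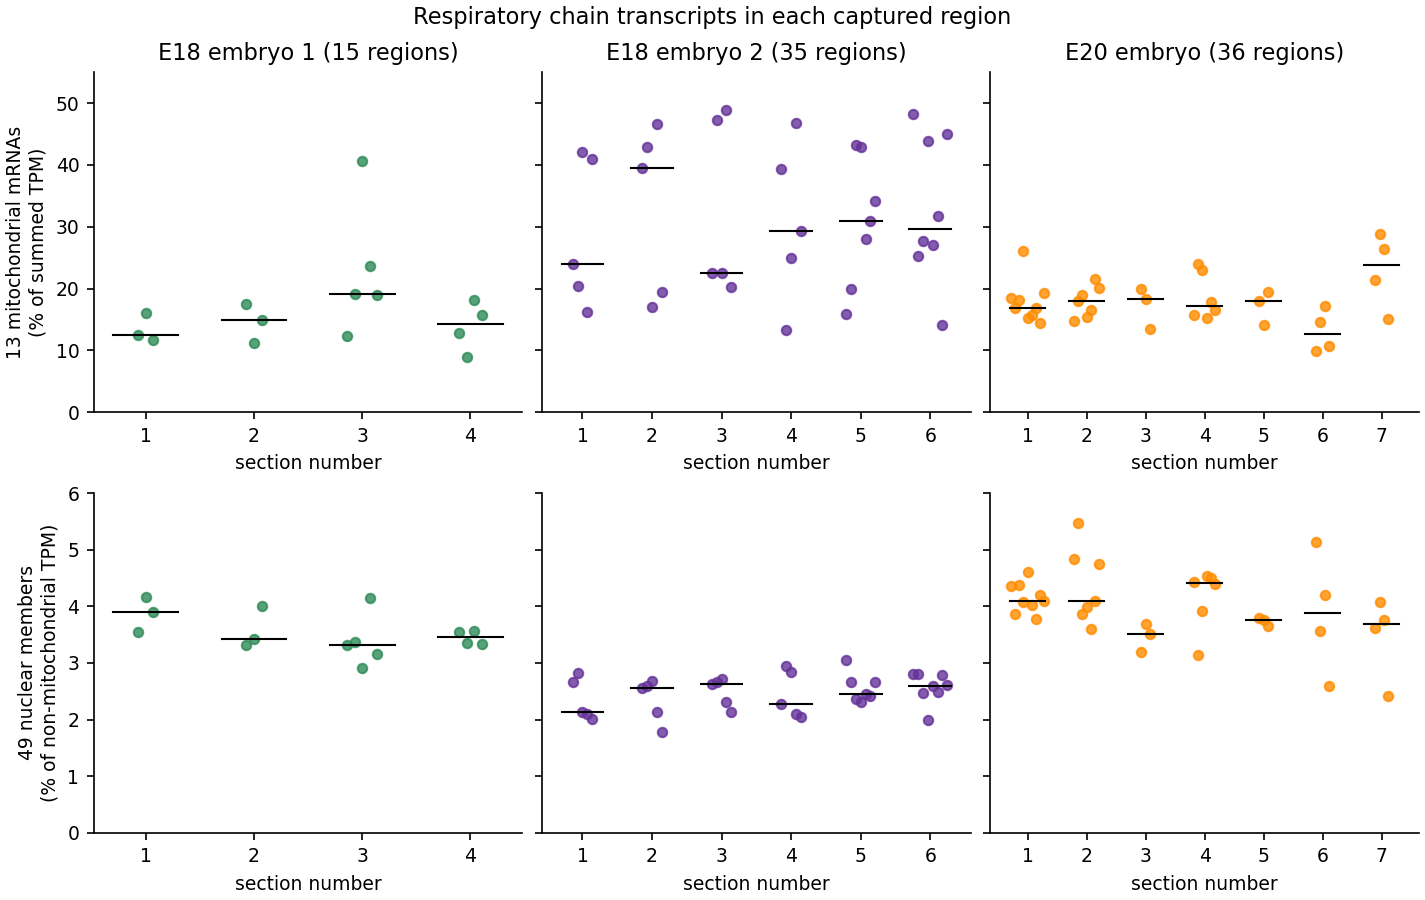
Each point is 1 captured region, plotted by section number (horizontal) within its embryo; the upper row gives the 13 mitochondrial mRNAs as a percentage of summed TPM and the lower row the 49 nuclear members as a percentage of non-mitochondrial TPM, with bars at section medians. E18 embryo 2 has a set of 14 regions at or above 39.4% spread over all its sections, and 1 region of E18 embryo 1 stands at 40.6%.

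COX3, a core subunit of cytochrome c oxidase, was the most abundant of the 13 mRNAs in every embryo. It made up 29.1% ± 2.38 of their summed TPM in the first E18 embryo (SD over 15 regions), 24.5% ± 2.73 in the other (35 regions) and 28.8% ± 3.12 at E20 (36 regions). In deposited TPM its lowest, median and highest regions stood at 18980, 28956 and 55520 in E18 embryo 1, at 24614, 51601 and 90127 in E18 embryo 2, and at 23363, 36701 and 52896 at E20. ND6, the one mRNA of the set carried on the opposite strand, had the lowest mean share in each embryo (1.26%, 1.27% and 1.14%). CYTB, the mitochondrially encoded subunit of complex III, kept a similar share throughout, at 11.2% ± 2.41, 10.4% ± 1.24 and 9.91% ± 1.82.

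The make-up of the pool was not the same in the 3 embryos. ND4L, a small membrane subunit of complex I, held 10.6% ± 2.33 of the pool in E18 embryo 1, 19.7% ± 2.17 in E18 embryo 2 and 13.2% ± 3.84 at E20. ATP8 ran from 3.25% to 5.57% in E18 embryo 1 and from 5.96% to 9.61% in E18 embryo 2, without overlap. ND4 ran the other way, from 4.03% to 8.49% in the first and from 2.97% to 3.87% in the second, again without overlap. COX2 ran from 6.31% to 8.92% in E18 embryo 2 and from 10.9% to 23.9% at E20, also without overlap. Of the 39 comparisons of an mRNA's share between 2 embryos, these 3 were the ones whose ranges did not meet.

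ND4L and ND4 are neighbours on the mitochondrial genome with overlapping reading frames on 1 shared mRNA, as are ATP8 and ATP6, so the ratio within each pair also carries how reads were divided between them. The ratio of ND4L to ND4 was 0.922 to 2.79 (median 1.65) in E18 embryo 1 and 3.98 to 6.85 (median 5.84) in E18 embryo 2. At E20 it was 2.50 to 4.61 (median 3.79) in sections 1 to 5 and 1.31 to 1.86 (median 1.56) in sections 6 and 7. The 2 E18 embryos did not overlap, nor did the 2 blocks of E20 sections. For ATP8 to ATP6 the medians of these 4 groups were 2.16, 5.17, 3.50 and 2.19. The E18 embryos were again apart without overlap (1.50 to 3.25 against 3.95 to 6.74), as was E18 embryo 2 from E20 sections 6 and 7 (1.83 to 3.39), while the 2 blocks of E20 sections overlapped. COX2 to COX1, which come from separate transcripts after processing, was highest at E20 (4.20 to 23.03, median 9.09) and lower in E18 embryo 1 (2.24 to 6.59, median 3.13) and E18 embryo 2 (1.21 to 2.99, median 1.88). Its E20 medians were 9.91 in sections 1 to 5 and 5.06 in sections 6 and 7, and both blocks overlapped E18 embryo 1. The highest value, 23.03, came from 1 region, section 6 sector 1. These ratios were chosen after the values had been seen and were not tested. Whether library preparation moves with them was not tested, and values for genes that share a transcript or, as for ND6, face others on the opposite strand are uncertain where counting by strand is not stated.

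**Figure D2:**
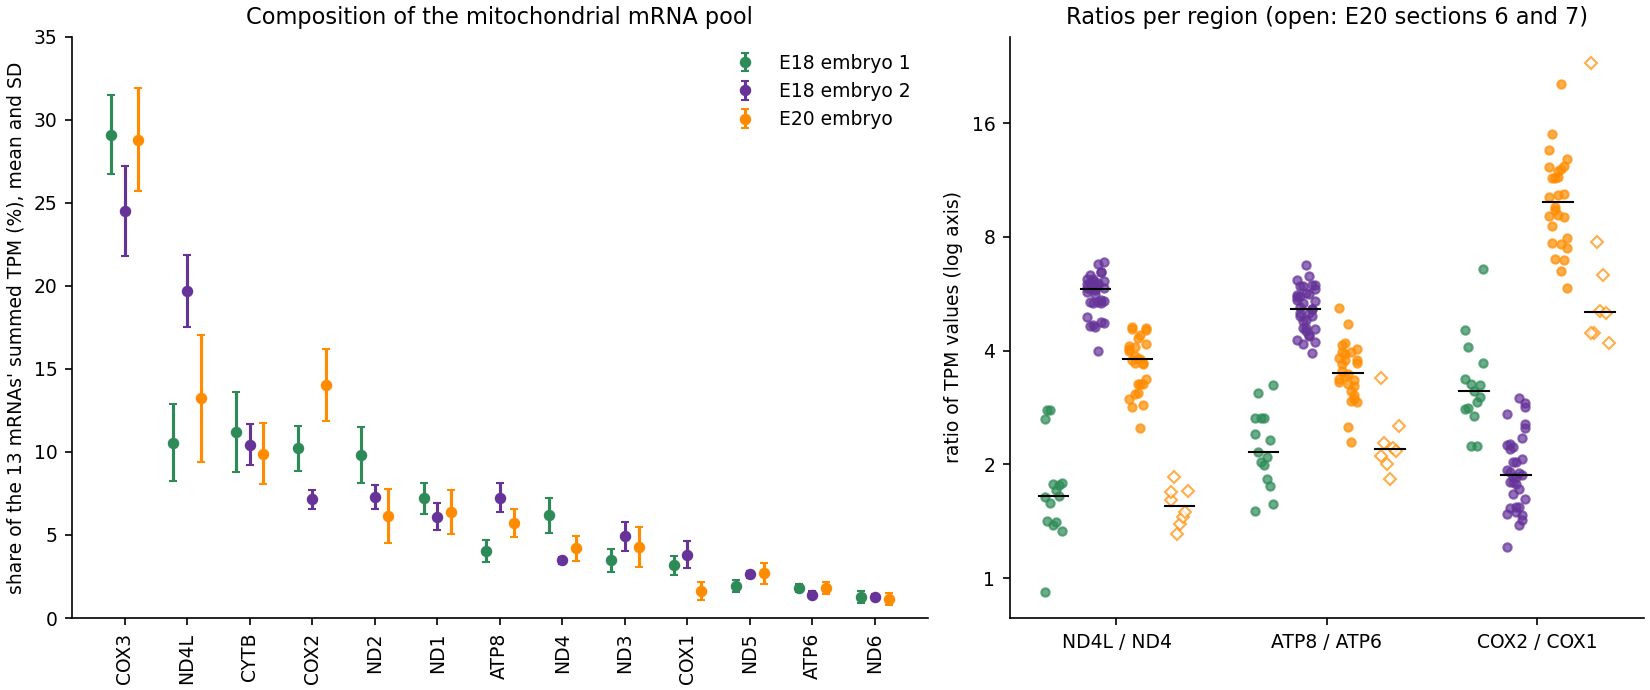
Left, each mitochondrial mRNA's share of the 13 mRNAs' summed TPM (percent, mean and SD over the regions of each embryo); right, 3 ratios of TPM values per region on a log axis, with bars at medians and E20 sections 6 and 7 as open symbols. ND4L over ND4 separates E18 embryo 1 (0.922 to 2.79) from E18 embryo 2 (3.98 to 6.85), and the median of COX2 over COX1 is highest in the E20 embryo.

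The 2 most abundant nuclear members were subunits of the ATP synthase. ATP5ME (subunit e, which helps synthase dimers form) averaged 3353 rescaled TPM over the 3 embryo means, ATP5F1E (the epsilon subunit) 2759 and ATP5IF1 (the inhibitor that blocks the synthase when it runs backwards) 1290, while ATP5F1D (the delta subunit of the central stalk) was lowest of the 11 at 217. In complex I the accessory subunits NDUFB2, NDUFA1 and NDUFB4 led with 1829, 1603 and 1467, and NDUFS1, the large iron-sulfur core subunit, was lowest of 28 at 57.3. The complex III members were closer together, with UQCRQ at 831, UQCRB at 606 and the core protein UQCRC1 at 411. In complex IV the widely expressed COX7B and COX8A stood at 1695 and 737, and the tissue-restricted isoforms were much lower, with COX4I2 at 105, COX7A1 at 75.5, COX6B2 at 20.3, COX7B2 at 2.46 and COX6A2 at 0.966. COX7B2 was listed at 0 in 70 of 86 regions and COX6A2 in 75.

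The summed nuclear members of each complex had their lowest median in E18 embryo 2. These sums cover only the genes of the set and are not totals of a complex. Among the 7 of complex IV, COX7B and COX8A stood far above the rest. The 28 complex I genes summed to 1.72% of non-mitochondrial TPM in the median region of E18 embryo 1, to 1.27% in that of E18 embryo 2 and to 2.03% at E20. For the 11 complex V genes the medians were 1.28%, 0.916% and 1.43%, for complex III 0.203%, 0.158% and 0.197%, and for complex IV 0.263%, 0.189% and 0.313%. NDUFB2 gave 1059, 1422 and 2400 rescaled TPM in the lowest, median and highest region of E18 embryo 1, 781, 1165 and 1627 in E18 embryo 2, and 1052, 2862 and 4250 at E20, where all 28 regions of sections 1 to 5 lay at or above 1734. Of its sum of squares 68.6% lay between embryos, the largest such part among the nuclear members.

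The mitochondrial mRNAs varied together from region to region, and the nuclear members did so far less. With log2 values centred within each embryo, the 78 pairs of mitochondrial mRNAs had a median Pearson r of 0.846 over 86 regions, from 0.687 (COX1 with ND4L) to 0.961 (ATP8 with COX2). The 1176 nuclear pairs had a median of 0.143, from -0.573 (ATP5MC2 with ATP5PF) to 0.68 (ATP5F1C with NDUFA12), and 70.7% were above 0. For scale, pairs of the 64 mitochondrial ribosomal protein genes, another set of nuclear genes for one machine, had a median of 0.171. Mitochondrial with nuclear pairs had a median of -0.141, and 22.6% of the 637 were above 0. All these correlations are across regions that share embryos and libraries, and they are given as descriptions. Among the nuclear genes the scaling makes 1 gene's gain another's loss. The mitochondrial mRNAs lie outside the sum they were divided by, so a gain in 1 of them lowers no other value. Their shared divisor can move them up and down together, and its part in their correlations was not tested.

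The loose nuclear co-variation had some structure. NDUFS6, an accessory subunit of complex I, followed the mean of the other nuclear members most closely (r = 0.659), then ATP5PO, the stalk subunit also called OSCP (r = 0.64). COX4I2 ran against that mean (r = -0.243) and against UQCRQ in particular (r = -0.566). ATP5F1D and ATP5MC2, which were both lower in E20 sections 1 to 5, had an r of 0.639 with each other. By embryo the median mitochondrial pair stood at 0.880, 0.957 and 0.616, and the median nuclear pair at 0.187, 0.174 and 0.145. The lowest mitochondrial pair at E20 was 0.216. In E18 embryo 1 without its region of highest mitochondrial share, the medians were 0.751 for mitochondrial and 0.115 for nuclear pairs. The summed mitochondrial level and the mean nuclear level had an r of -0.295 over all regions and of -0.637, -0.348 and -0.105 within the embryos, and without the outlying region of E18 embryo 1 the first of these became -0.0644 and the overall value -0.209.

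**Figure D3:**
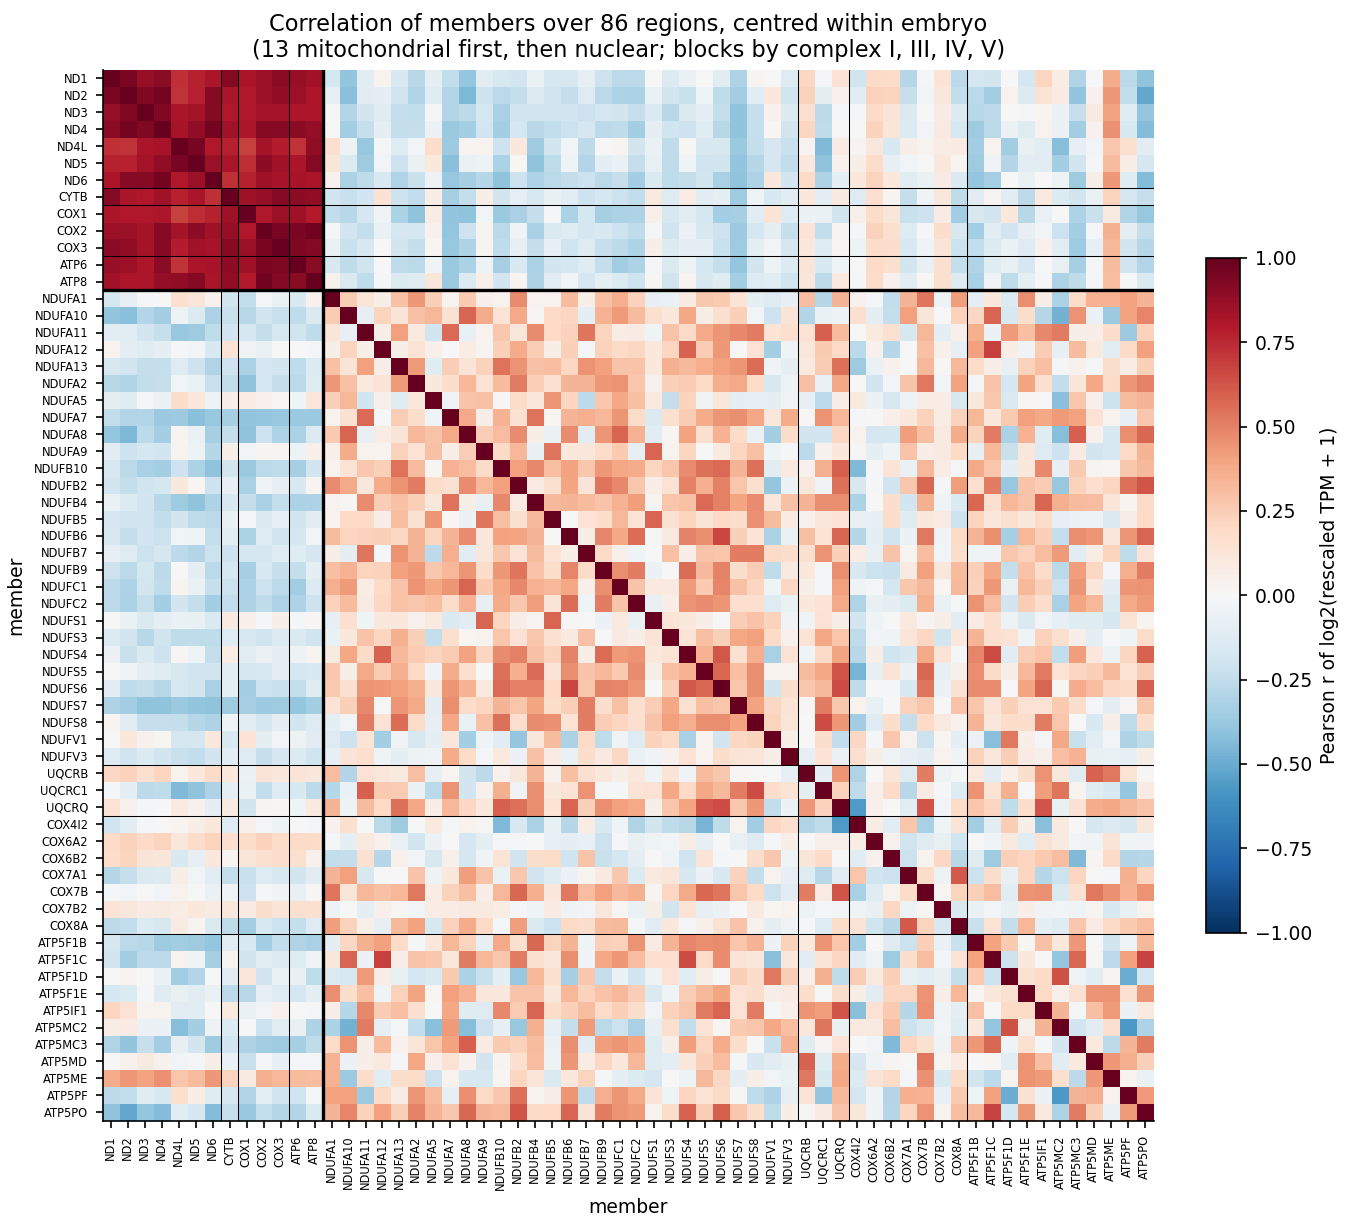
Pearson r between the 62 members over 86 regions (log2 rescaled TPM + 1, centred within embryo), with the 13 mitochondrial mRNAs first and lines between complexes I, III, IV and V. The mitochondrial block is high over all regions (0.687 to 0.961, median 0.846), the nuclear block mixed (median 0.143) and the block between them mostly below 0 (median -0.141).

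To ask whether stage changed the set, the E20 embryo was compared with the 2 E18 embryos on 3 embryo means, which leaves 1 residual degree of freedom, so the spread of each gene was taken from all genes. Of the 36 E20 regions 28 lay in sections 1 to 5, the endoderm marker level had medians of 9.04 at E20 and of 1.17 and 1.84 in the E18 pair, and those of the epiblast level were 2.47, 6.13 and 6.76, so stage and tissue cannot be told apart. Of the 49 nuclear members 0 were higher and 0 lower (limma, adjusted p under 0.05), against a background of 0.85% of all genes tested called higher and 4.76% called lower. Among the mitochondrial mRNAs COX1 differed most, by -1.56 log2 units. Among the nuclear members COX6B2 differed most, by -2.60, then COX4I2 by 1.27 and NDUFA12, an accessory subunit of complex I, by 1.20. These values are given as effect sizes, not as calls. Of the 49 nuclear differences 34 were above 0, against 2825 of 15994 over all genes. The median nuclear difference was 0.40, the median of the 13 mitochondrial mRNAs was -0.50 and that of all genes tested was -0.67. In simulated data this fit recovered 6% of planted differences of 2 log2 units and 65.5% of differences of 4. The calls over all genes split 136 higher to 762 lower, and 482 to 523 after quantile normalization. With the median over regions in place of the mean for each embryo, 0 of all genes were called in either direction.

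The 2 E18 embryos, compared without a test, differed in opposite directions for the mitochondrial and the nuclear members. Of all 15994 genes tested, 13735 were higher in embryo 2 and 2259 lower. All 13 mitochondrial mRNAs were higher in embryo 2, with a median log2 difference of 1.11 and the largest values for ND4L (2.10), ATP8 (2.03), ND3 (1.70), ND5 (1.65) and COX1 (1.44), and the smallest for ND4 (0.37). Of the nuclear members 42 of 49 were lower in embryo 2, with a median of -0.39, while the median over all genes was 0.69. The mitochondrial mRNAs thus went the way of most genes, and most nuclear members went against it. NDUFB4, which sits in the membrane arm of complex I, showed the largest nuclear difference, at -1.11. It gave 1041, 2202 and 3008 rescaled TPM (lowest, median and highest region) in embryo 1 and 485, 951 and 1577 in embryo 2. The ranges overlapped, although the median of each embryo lay outside the other's range. Genes detected at a TPM of at least 1 averaged 10343 per region in embryo 1 and 12415 in embryo 2, and their part in these differences was not tested.

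Along the sections of an embryo, numbered as in the labels, 3 nuclear members rose and 7 fell (limma, slope from the first to the last section with embryo as a block, adjusted p under 0.05). The background was 9.69% of genes rising and 1.92% falling, so rising members were near that share and falling members more frequent than among all genes. COX6B2 rose by 2.36 ± 0.516 log2 units (SE), ATP5F1D by 0.79 and ATP5MC2, 1 of the 3 genes for the proton-carrying c subunit, by 0.49. Those that fell were NDUFA8 (-0.88), ATP5F1C, the gamma subunit of the rotor (-0.69), NDUFS4 (-0.63), ATP5MC3, another c subunit gene (-0.55), NDUFB9 (-0.52), ATP5PO (-0.44) and NDUFB6 (-0.41). Slopes had the same sign in all 3 embryos for 8 of the 10, the exceptions being ATP5F1D and ATP5MC2. In a test of whether slopes differed between the embryos, 8 of 49 nuclear members passed (limma, adjusted p under 0.05), against 12.1% of all genes, and their slopes are given at the end. No mitochondrial mRNA was called in limma, and 2 had an unadjusted p under 0.05. Regions of 1 embryo are not independent, so these p-values and those below measure the spread between regions.

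The section calls rested on the E20 embryo, whose sections 1 to 5 and 6 to 7 also differed in tissue. Without that embryo 0 of 49 members rose and 0 fell, and the COX6B2 slope was 1.48 (adjusted p = 0.673). The same 0 and 0 came from section means and from a fit with the 2 blocks of E20 sections kept apart. ATP5MC2 at E20 gave 198, 414 and 708 rescaled TPM (lowest, median and highest region) in sections 1 to 5, and 703, 882 and 1177 in sections 6 and 7, so the blocks nearly separated. ATP5F1D gave 25.7, 96.0 and 203 in the first block and 152, 297 and 351 in the second. NDUFA8 ran the other way, with 216 to 806 in the first and 31.2 to 410 in the second. With scaling to the upper quartile the split was 5 rising and 1 falling, and over all genes 2038 and 204, against 1550 and 307 in the values above and 878 and 450 after quantile normalization.

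Between the 2 blocks of E20 sections, set side by side without a test, the nuclear members differed by a median of 0.11 and the mitochondrial mRNAs by -0.06 (sections 1 to 5 minus 6 and 7, log2), against -0.38 for all genes. Behind the small median, 5 members were higher by at least 1 in sections 1 to 5: NDUFA8 (1.61), ATP5F1C (1.10), NDUFA10 (1.07), COX7A1 (1.06) and ATP5PF (1.00). Another 5 were lower by at least 1: COX6B2 (-3.39), ATP5F1D (-1.70), NDUFV1, which binds NADH and flavin (-1.32), ATP5MC2 (-1.17) and UQCRC1 (-1.08). Of the 15994 genes tested, 1232 were higher and 4704 lower by at least as much. Subunits of the same complex therefore stood on both sides, as with ATP5F1C and ATP5F1D of complex V and with NDUFA8 and NDUFV1 of complex I. Of the mitochondrial mRNAs ND4L alone differed by more than 1 (1.14).

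To see whether nuclear members followed the mitochondrial ones, each gene was regressed on the log2 ratio of mitochondrial to other TPM, with embryo as a block. Of 49 nuclear members 1 was higher and 5 lower where the ratio was high (limma, adjusted p under 0.05), against 16.9% and 2.42% of all genes. ATP5ME was higher by 0.20 per log2 unit, and NDUFS7 (-0.33), NDUFA7 (-0.27), ATP5MC3 (-0.22), ATP5F1B, the catalytic beta subunit (-0.20), and ATP5PO (-0.18) were lower. The median over the members was -0.12 and over all genes 0.14. The counts moved with the scaling and the embryos used. With TPM as deposited 0 were higher and 44 lower, ATP5ME among them at -0.17, and with upper quartile scaling 0 and 22. They were 0 and 1 without E18 embryo 1, 0 and 0 without E18 embryo 2, and 1 and 1 without the outlying region of E18 embryo 1, and 14 members were lower without the E20 embryo. The split over all genes was 2697 higher to 387 lower, 895 to 3197 with TPM as deposited, 1872 to 885 with upper quartile scaling and 923 to 752 after quantile normalization.

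The labels name no cell types, so regions were placed by scores of 3 marker lists, each the mean of the markers' z-scores within an embryo, and members were regressed on 1 score at a time with embryo as a block. Slopes are log2 units per SD of the score. The scores were not independent: epiblast and mesenchyme scores had an r of -0.635 over 86 regions, and epiblast and yolk sac endoderm scores of -0.483 (-0.841 within the E20 embryo).

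COX4I2 had the steepest slope on the mesenchyme score. It was higher by 1.76 ± 0.156 per SD of the mesenchyme score (SE; adjusted p = 1.23e-16 in limma), with slopes of 1.71, 1.95 and 1.63 in the 3 embryos. In rescaled TPM its lowest, median and highest regions stood at 0, 14 and 616 in E18 embryo 1, 0, 18.5 and 380.5 in E18 embryo 2, and 0.53, 66.1 and 779 at E20. Most of its variation was local, with 87.0% of its sum of squares within sections. The highest region of E18 embryo 1 (section 3 sector 1) ranked first of 15 in mesenchyme markers, that of the E20 embryo (section 7 sector 4) ranked 3 of 36, and that of E18 embryo 2 (section 2 sector 4) ranked 9 of 35. The slope was 1.63 to 1.86 with any 1 embryo left out and 1.96 with the epiblast score as a covariate (adjusted p = 2.29e-13).

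Amnion markers moved with COX4I2 as well. Its level had an r of 0.759 with the mesenchyme marker level, of 0.684 with the level of 9 amnion markers, of 0.429 with that of 5 trophoblast markers and of 0.0317 with that of 4 blood markers, over 86 regions centred within embryo. Within the embryos its r with mesenchyme markers was 0.695, 0.842 and 0.699 and with amnion markers 0.769, 0.878 and 0.445, so the amnion value was the higher one in both E18 embryos and the mesenchyme value at E20. Mesenchyme and amnion markers had an r of 0.699 with each other, and of 0.868, 0.934 and 0.314 by embryo. The amnion level ran from 2.51 to 6.23 in E18 embryo 1, from 2.72 to 7.81 in E18 embryo 2 and from 1.65 to 8.16 at E20. With the amnion score as a covariate the mesenchyme slope of COX4I2 was 1.34 (adjusted p = 1.58e-07 in limma).

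Apart from COX4I2, the members fell more often than they rose with the mesenchyme score taken alone. In all 3 were higher and 13 lower of 49, against 14.3% and 15.4% of all genes tested, and 15 of the 16 had 1 sign in all embryos. The other 2 higher ones were COX7A1 (0.33), a muscle-type isoform, and COX8A (0.15). The largest decreases were in COX6B2 (-0.61), NDUFS8, an iron-sulfur subunit next to the quinone site (-0.32), NDUFB5 (-0.28), UQCRC1 (-0.28), UQCRQ (-0.25), NDUFB10 (-0.25), NDUFB4 (-0.21), ATP5F1B (-0.21), ATP5IF1 (-0.19) and NDUFS6 (-0.19). By complex, 8 of 28 in complex I, 2 of 3 in complex III, 1 of 7 in complex IV and 2 of 11 in complex V were lower. None of the 13 mitochondrial mRNAs was called, and 0 had an unadjusted p under 0.05 in limma. The slopes of COX7A1 (-0.02), COX8A (-0.04) and COX6B2 (0.02) were lost with the epiblast score as a covariate, and 6 members were lower without E18 embryo 2. With the amnion score as a covariate the split turned, and more members were higher than lower (counts at the end). Over all genes 1672 were then higher and 3486 lower.

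**Figure D4:**
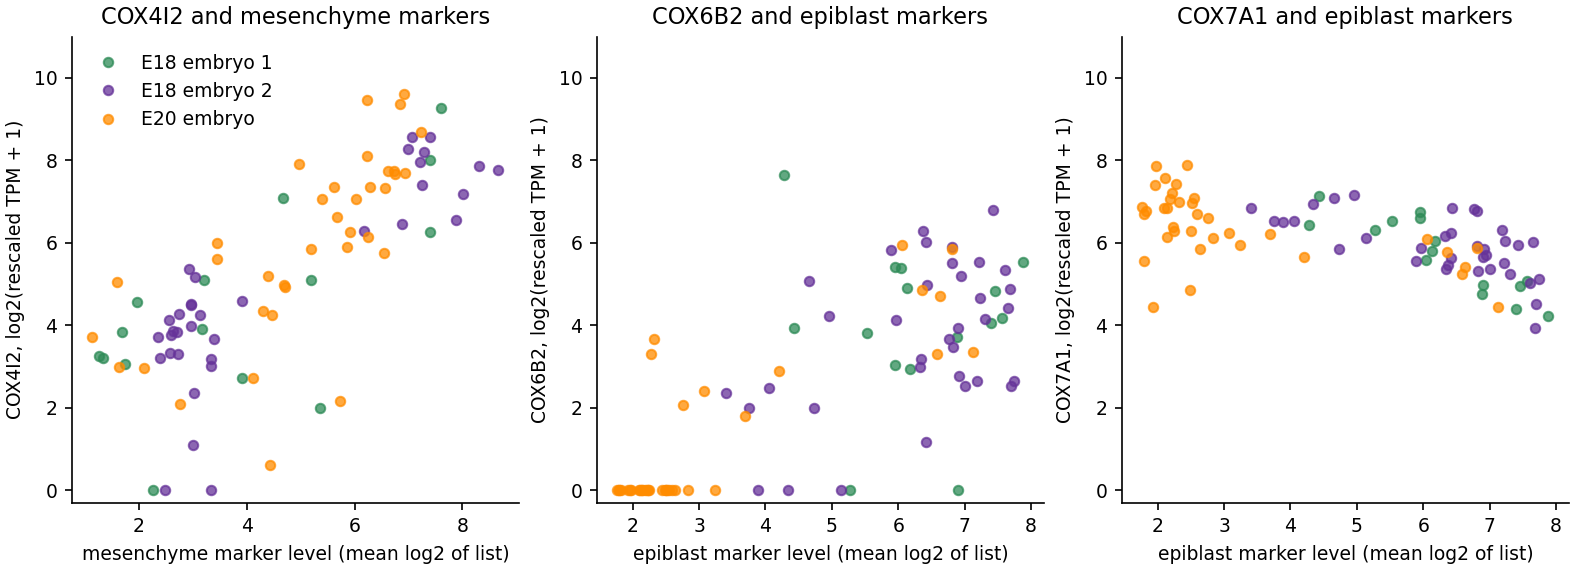
Level of 3 complex IV isoforms in each region, as log2(rescaled TPM + 1), against the mean log2 level of the marker list named on the horizontal axis; colours give the embryo. COX4I2 rises with mesenchyme markers in all 3 embryos (r = 0.759 after centring), COX6B2 is listed at 0 in 24 of 36 E20 regions, and COX7A1 falls with epiblast markers (r = -0.612).

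With the epiblast score 12 nuclear members were higher and 9 lower, against 29.2% and 10.4% of all genes. The largest positive slope was that of COX6B2 (0.99 ± 0.172 SE, adjusted p = 1.93e-06 in limma). Then came UQCRC1 (0.34), NDUFS8 (0.27), ATP5F1D (0.23), ATP5MC2 (0.20), NDUFB4 (0.19), ATP5IF1 (0.18), NDUFA11 (0.17), UQCRQ (0.16) and ATP5F1B (0.13). Lower with epiblast markers were COX4I2 (-0.93), COX7A1 (-0.53), NDUFA8 (-0.36), NDUFA10 (-0.29), COX8A (-0.27), ATP5PF (-0.19), ATP5MC3 (-0.15), ATP5PO (-0.12) and NDUFA1 (-0.11). The isoforms of complex IV thus had the steepest slopes in both directions. The 12 of 49 that were higher lay near the background share of 29.2%, and the median slope was 0.05 for members and 0.10 for all genes. Slopes kept 1 sign across the embryos for 12 of the 21.

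The split of nuclear members depended on scaling. With upper quartile scaling it was 26 higher and 4 lower, against 6337 and 1266 over all genes, and ATP5PO stood at 0.01. Over all genes the main split was 4672 to 1664, and 3589 to 2762 after quantile normalization. With the mesenchyme score as a covariate 7 were higher and 13 lower, COX4I2 changed to 0.31 (adjusted p = 0.222 in limma), and COX6B2 (1.00) and COX7A1 (-0.54) kept their slopes. Epiblast regions also had more genes detected (r = 0.389 between the score and the number of genes). With that number as a covariate COX6B2 stood at 0.89 and COX7A1 at -0.54.

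COX6B2 and COX7A1 carried that contrast in different ways. COX6B2 was listed at 0 in 29 of 86 regions and gave 0, 15.6 and 198 rescaled TPM (lowest, median and highest region) in E18 embryo 1, 0, 14.4 and 111 in E18 embryo 2, and 0, 0 and 61.4 at E20. In E20 sections 1 to 5, where epiblast markers were low, 23 of 28 regions were at 0, and in sections 6 and 7 the median was 17.1 with 1 region at 0. Its r with the epiblast marker level was 0.839 at E20, 0.499 in E18 embryo 2 and -0.08 in E18 embryo 1, whose highest COX6B2 region (section 3 sector 1, 198) was the lowest of 15 in epiblast markers. Without the E20 embryo its slope was 0.53 (adjusted p = 0.104 in limma). COX7A1, detected in every region, gave 17.7, 55.3 and 140 in E18 embryo 1, 14.3, 60.0 and 143 in E18 embryo 2, and 20.7, 80.3 and 237 at E20. Its epiblast slopes were -0.81, -0.50 and -0.48 by embryo, and -0.58 to -0.48 with any 1 embryo left out.

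Mitochondrial mRNAs were higher in epiblast-rich regions for 6 of 13, against 29.2% of all genes. The 13 varied together (median pair r of 0.846), so their calls are not independent of each other. The 6 were ND1 (0.31), ND2 (0.28), COX1 (0.23), CYTB (0.21), COX3 (0.18) and ATP6 (0.17), all called in limma at an adjusted p under 0.05. The other 7, which include ND4L and ATP8, were not called. The count was 3 without the E20 embryo, 2 without E18 embryo 1, and 10 with the mesenchyme score as a covariate.

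Yolk sac endoderm divided the nuclear members, with 10 higher and 7 lower of 49, against 7.04% and 19.3% of all genes tested (limma, adjusted p under 0.05). The higher ones were NDUFA8 (0.38), COX7A1 (0.30), ATP5F1C (0.25), ATP5PF (0.24), NDUFA10 (0.22), COX8A (0.17), NDUFB2 (0.16), ATP5MC3 (0.16), NDUFC1 (0.15) and ATP5PO (0.12). The lower ones were COX6B2 (-0.62), ATP5F1D (-0.36), ATP5MC2 (-0.27), UQCRC1 (-0.25), NDUFV1 (-0.24), NDUFA11 (-0.21) and NDUFB7 (-0.12). The 2 c subunit genes went opposite ways, ATP5MC3 up and ATP5MC2 down, although they encode the same mature protein. Among mitochondrial mRNAs ND4L (0.26) and ND5 (0.18) were higher.

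These endoderm slopes came from the E20 embryo. Without it 0 of 49 were called in either direction, and the same was true with section as a block. The signs agreed in 3 embryos for 8 of the 17. The score was high in sections 1 to 5 of that embryo and low in sections 6 and 7, and it ran against the number of genes detected (r = -0.52 at E20). With that number as a covariate 8 nuclear members were higher and 6 lower, and 1 mitochondrial mRNA was called, against 1258 higher and 1944 lower over all genes (limma, adjusted p under 0.05). NDUFA8 gave 47.7, 263 and 446 rescaled TPM in the lowest, median and highest region of E18 embryo 1, 77.7, 165 and 441 in E18 embryo 2, and 31.2, 470 and 806 at E20. UQCRC1 gave 169, 518 and 922, then 247, 471 and 773, then 74.4, 211 and 810. So NDUFA8 had its highest median and UQCRC1 its lowest in the embryo rich in yolk sac endoderm. The split over all genes was 1124 higher to 3077 lower, and 1653 to 2334 after quantile normalization.

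**Figure D5:**
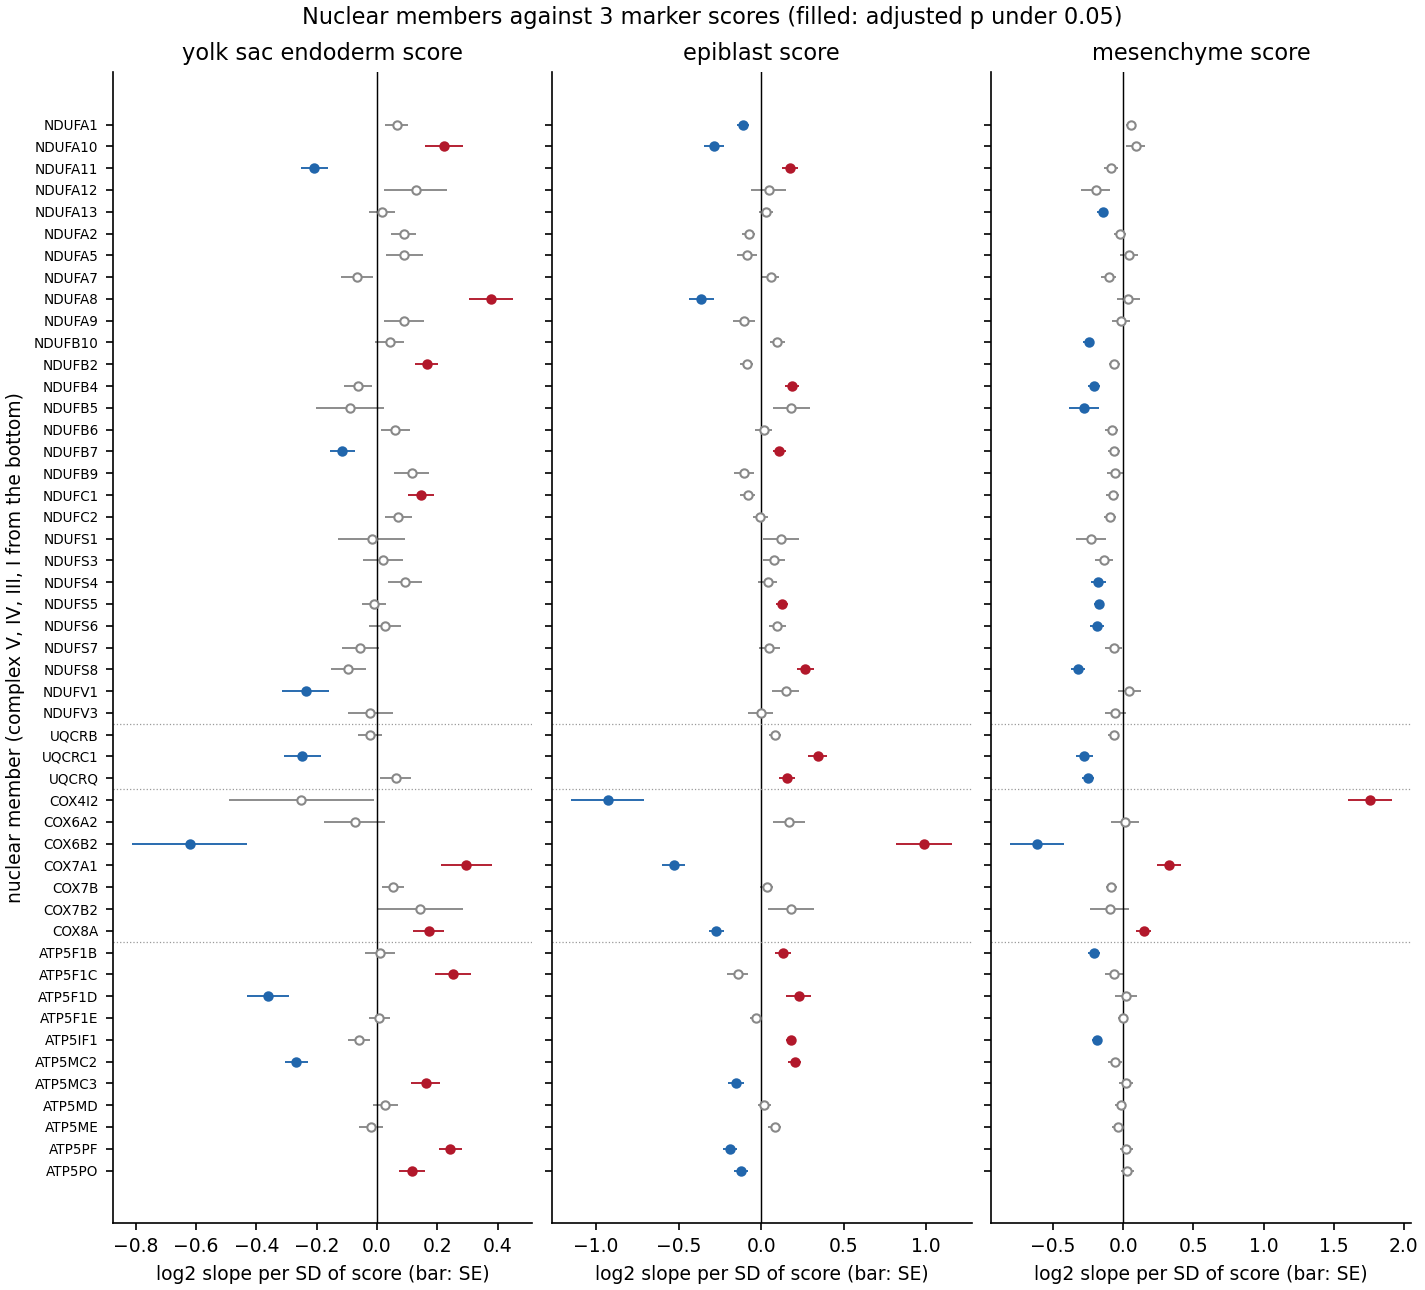
Slope of each of the 49 nuclear members (log2 units per SD of score, bar SE) on the yolk sac endoderm, epiblast and mesenchyme scores, with members in order of complex and filled symbols where the adjusted p in limma was under 0.05. COX4I2 and COX6B2 lie farthest from 0, in opposite directions on the epiblast and mesenchyme scores.

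Genes that maintain, express and assemble the respiratory chain were followed alongside the members. Their counts are read against the shares of all genes called higher and lower, which were 29.2% and 10.4% with the epiblast score, 14.3% and 15.4% with the mesenchyme score, 7.04% and 19.3% with the endoderm score, and 16.9% and 2.42% with the mitochondrial mRNA level. Of 20 genes for mitochondrial DNA replication, transcription and RNA handling, 14 were higher and 0 lower with the epiblast score, with a median slope of 0.32 against 0.10 for all genes. They included TWNK, the replicative helicase (0.69), POLG2 (0.61), SUPV3L1 (0.54), MGME1 (0.52), POLRMT, the mitochondrial RNA polymerase (0.40), and TFAM, which packages the DNA (0.19). With the mesenchyme score 0 of the 20 were higher and 8 lower, led by POLG2 (-0.70), and with the endoderm score 0 and 4. Against the mitochondrial mRNA level itself, 0 of these 20 genes were called in limma, and 3 had an unadjusted p under 0.05.

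Mitochondrial ribosomal protein genes followed a like order. Of 64, 24 were higher and 3 lower with the epiblast score (medians 0.17 for the list and 0.10 for all genes), 1 and 23 with the mesenchyme score (-0.18 and -0.01), 3 and 12 with the endoderm score, and 0 and 8 with the mitochondrial mRNA level. The counts with the endoderm score were close to the shares over all genes. MRPS2 had the steepest slopes of the list, at 0.94 with the epiblast score, -0.80 with the mesenchyme score and -0.70 with the endoderm score. Of 37 assembly factors, 11 rose and 1 fell with the epiblast score, with COX10, which makes heme A precursor for complex IV (0.51), and BCS1L, which inserts the Rieske protein into complex III (0.48), at the top. The 11 of 37 that rose were close to the share of 29.2% over all genes. With the mesenchyme score 1 assembly factor rose and 8 fell, and with the endoderm score 0 rose and 3 fell.

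Regulators of mitochondrial biogenesis were followed in the same way. Of 10, PPRC1 (0.49), MYC (0.42), NRF1 (0.40), ESRRA (0.34) and GABPB1 (0.29) were higher with the epiblast score, and 0 were lower. PPARGC1A, the coactivator PGC-1 alpha, was higher with the mesenchyme score (0.35) and with the mitochondrial mRNA level (0.59), where PPRC1 was also higher (0.46). The 2 of 10 called higher with the mitochondrial mRNA level lay near the share of 16.9% over all genes. PPARGC1A slopes on that level were 0.80 and 0.72 in the E18 embryos and -0.18 at E20, so the sign was not shared. PPARGC1A was also near the floor, with mean log2 levels of 0.76 and 1.75 in the E18 embryos and 1.02 at E20.

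Complex II and the citric acid cycle feed electrons into the chain. Of 3 genes tested for complex II and cytochrome c1, CYC1, a subunit of complex III outside the symbol rule, was higher with the epiblast score (0.19), and lower with the mesenchyme score (-0.26) and the mitochondrial mRNA level (-0.40). SDHB was higher with the endoderm score (0.38) and lower with the mesenchyme score (-0.25), and SDHD was lower with the mitochondrial mRNA level (-0.34). SUCLG1, a subunit of succinyl-CoA ligase, stood out among 12 citric acid cycle genes, at -0.81 with the epiblast score, 0.76 with the endoderm score and 0.36 with the mesenchyme score.

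Glycolysis gave a comparison outside mitochondria. Of 12 genes, 7 were higher and 1 lower with the epiblast score, led by PGAM1 (0.56), and the lower one was the glucose transporter SLC2A1 (-0.45). With the mesenchyme score 1 was higher, SLC2A1 (0.98), and 6 were lower. Along the sections 4 of 12 rose (PFKL at 1.50, PFKP at 1.29, HK1 at 0.99 and GAPDH at 0.79), against 9.69% of all genes. Of the members 0 mitochondrial mRNAs and 3 of 49 nuclear ones rose. Calls along the sections rested on the E20 embryo, whose 2 blocks of sections differed in tissue. Without that embryo 10 of all 15994 genes rose, and with its 2 blocks kept apart 6 did.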

How the data were processed

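RNA from 86 captured regions was processed by the authors with fastp, HISAT2 and StringTie, per the submitters' processing notes, without versions; the genome build is not given in the sources used here. The deposited values are TPM per gene, and each of the 86 columns was matched to a region by its labels (0 unmatched). Columns summed to between 495547 and 777987.5 TPM, so some genes that entered the authors' scaling are not in the table. Depth cannot be recovered from TPM, so no counting interval is given.

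Each region's TPM values were divided by their sum without the 13 mitochondrial mRNAs, multiplied by 1000000 and used as log2(value + 1), so fold changes of low genes are understated. The log2 values were computed here from the deposited TPM. The filter required a rescaled value of 1 or more in 10 or more regions, and all 62 members passed it. The models used limma 3.58.1 under R 4.3.3 (lmFit and eBayes, trend on), and Benjamini-Hochberg adjusted p-values over all genes were called at 0.05. Section, mitochondrial level and score fits used embryo as a block, and the stage fit used 3 embryo means. Regions of an embryo are not independent, and nothing in the labels names separate replicates. Summaries used Python 3.11.15, numpy 2.4.6 and pandas 2.3.3, and matplotlib 3.10.9 drew the pictures.

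Simulated data in which 200 genes were changed served to test the fits: 91.5% of section slopes of 2, 89% of mitochondrial level slopes of 1 and 99% to 100% of score slopes of 1 were recovered. False calls numbered 4 for sections, 21 for the mitochondrial level and 10, 6 and 7 for the endoderm, epiblast and mesenchyme scores. Each gene was shuffled on its own within an embryo, so the dependence between regions was not kept. Most member slopes given above were smaller than those planted, and recovery at their size was not measured. The members, gene lists and tests were chosen with earlier results of these data known. Named genes are the 13 mitochondrial mRNAs, the 10 largest called effects in each direction among nuclear members, a panel of isoforms, the 3 highest and the lowest member of each complex, and called genes of the lists. Alternatives are described at the end. Of the 49 nuclear members 48 matched a RefSeq gene table, which held 0 of the 13 mitochondrial genes, and no coordinates are given.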

Additional observations from a re-analysis of the deposited data

Results flagged for a closer look

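For 8 nuclear members the slope along sections differed between the 3 embryos (limma, moderated F test of the embryo by section interaction, with Benjamini-Hochberg adjustment over all genes). This compares with 12.1% of all genes (1940 of 15994), and 0 of the 13 mitochondrial mRNAs passed. Slopes are log2 units from the first to the last section, given first for the 2 E18 embryos and then for E20. Rising at E20 and near 0 or below in the E18 embryos were ATP5F1D (-0.28, 0.03 and 2.02, adjusted p = 0.000186), ATP5MC2 (-0.11, 0.09 and 1.17, adjusted p = 0.000665), NDUFV1 (-0.21, -0.15 and 1.75, adjusted p = 0.00268) and UQCRC1 (-0.63, 0.04 and 1.05, adjusted p = 0.0221). Falling at E20 were NDUFA1 (-0.02, 0.27 and -0.68, adjusted p = 0.00434), ATP5PF (0.12, 0.05 and -0.94, adjusted p = 0.00602), COX8A (-0.67, 0.38 and -0.85, adjusted p = 0.00915) and NDUFB2 (-0.26, 0.19 and -0.76, adjusted p = 0.0139). Yolk sac endoderm marker levels in the E20 embryo dropped between sections 5 and 6, and their part in these slopes was not tested.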

How the results depend on the processing

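No paired analysis was possible because the labels give no replicate numbers shared between groups. Counts below are of the 49 nuclear members and 13 mitochondrial mRNAs called in limma at an adjusted p under 0.05.

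A pseudocount of 0.1 called 1 nuclear member higher and 1 mitochondrial mRNA for the stage, 2 lower with the mitochondrial level and 1 mitochondrial mRNA with the endoderm score. With TPM as deposited the stage fit gave 2 higher and 1 lower, the section trend 2 mitochondrial mRNAs, the mitochondrial level 0 higher and 44 lower (ATP5ME -0.17), the endoderm score 4 lower and the mesenchyme score 1 mitochondrial mRNA. Quantile normalization, which left out the mitochondrial mRNAs, gave 1 higher for the stage and 2 lower with the mitochondrial level. Upper quartile scaling gave 5 rising, 1 falling and 1 mitochondrial mRNA along sections, 0 higher and 22 lower with the mitochondrial level, 1 mitochondrial mRNA with the endoderm score, 26 higher and 4 lower with the epiblast score (ATP5PO 0.0113) and 1 mitochondrial mRNA with the mesenchyme score. The stricter filter left 2 lower with the mitochondrial level, and no filter left 1 mitochondrial mRNA with the endoderm score. Genes detected as a covariate left 4 falling along sections and 1 mitochondrial mRNA with the endoderm score.

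Section means and the separate E20 blocks gave 0 rising and 0 falling along sections. Section as a block gave 2 higher and 1 lower with the mitochondrial level, 3 lower with the epiblast score (ATP5F1D -0.0557 and ATP5PO 0.00569), and 0 higher, 0 lower and 0 mitochondrial mRNAs with the endoderm score (NDUFB2 -0.00338, ATP5PO -0.00163, COX6B2 0.0283 and ND5 -0.0299).

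Without E18 embryo 1 the mitochondrial level gave 0 higher and 1 lower, and the epiblast score 2 mitochondrial mRNAs. Leaving out E18 embryo 2 gave 14 falling and 1 mitochondrial mRNA along sections, 0 higher and 0 lower with the mitochondrial level, UQCRQ at -0.0142 with the epiblast score and 6 lower with the mesenchyme score. Leaving out the E20 embryo gave 0 rising and 0 falling along sections (ATP5F1D -0.065), 14 lower with the mitochondrial level, 5 lower and 3 mitochondrial mRNAs with the epiblast score (ATP5F1D -0.106 and ATP5MC2 -0.00103), and 0 higher, 0 lower and 0 mitochondrial mRNAs with the endoderm score (NDUFB2 -0.0061, NDUFC1 -0.0188, COX6B2 0.175 and ATP5F1D 0.0432). Against a single E18 embryo the stage difference has no test.

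Chosen after seeing the data were 4 alternatives. Without the E18 embryo 1 region of highest mitochondrial share, 1 member was lower with the mitochondrial level. The mesenchyme score as a covariate left 7 higher and 10 mitochondrial mRNAs with the epiblast score (UQCRQ -0.0053, ATP5F1B -0.00092 and COX4I2 0.31). The epiblast score as a covariate gave 6 mitochondrial mRNAs with the mesenchyme score (COX7A1 -0.0167, COX8A -0.0422 and COX6B2 0.0229). The amnion score as a covariate gave 10 higher, 7 lower and 3 mitochondrial mRNAs there.

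Of the values of named members under these alternatives, the numbers that kept sign and call, lost the call and changed sign were 77, 42 and 1 for the section trend, 42, 29 and 1 for the mitochondrial level, 173, 45 and 8 for the endoderm score, 260, 50 and 9 for the epiblast score and 158, 21 and 3 for the mesenchyme score. The cause of these changes was not tested. Depth is unknown, which limits what the values of COX6A2, COX7B2 and other genes near 0 can show.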
